A study of Sus scrofa with 8 samples.

Results

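The cytosolic ribosomal proteins are described here in pig liver, on 96 probe sets for 64 genes, out of 23935 probe sets (6765 genes with a symbol of their own) on the array once controls are left out. A probe set is a group of short probes that together give 1 value for a transcript. Members were taken by name, though the group was chosen with earlier results of these data known. The annotation had to give a single symbol that begins with RPL or RPS and a digit, or to name RPLP0, RPLP1, RPLP2 or RPSA. The kinases of RPS6 were left out. They comprise 34 proteins of the large subunit, 24 of the small subunit, and 6 others, of which 5 are paralogs (RPL22L1, RPL26L1, RPL36AL, RPL7L1 and RPS27L) and 1, RPS19BP1, is a protein that binds RPS19.

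The samples were livers of 4 Korean native pigs (KNP), 7 months of age, and 4 Yorkshire pigs (YS), 6 months of age, with 1 Affymetrix porcine array per animal. According to the labels all 8 animals were kept under the same conditions, and RNA came from the end of the largest liver lobe, so the tissue is a mixture of hepatocytes and other cells. Breed and age cannot be told apart, nor can any hybridization batch that ran with breed. In whole tissue, fewer cells that use a gene and less RNA of that gene per cell cannot be told apart either. The comparison asks which of these genes differ between the livers of the breeds.

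Ribosomal proteins are the structural partners of ribosomal RNA. Those of the small subunit help to hold and decode the mRNA, and those of the large subunit surround the site of peptide bond formation, the exit tunnel and the stalk that recruits elongation factors. Their mRNAs are short and abundant, begin with a run of pyrimidines, and are translated together under the control of the mTOR pathway. The liver, which secretes most plasma proteins, depends on a large pool of ribosomes. Mammalian genomes also carry many processed copies of these genes, so a probe set may take up signal from more than its own gene, and the values are uncertain to that extent.

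The tissue label held against its markers: all 10 hepatocyte markers tested (ALB, APOA1, TTR, TF, SERPINA1, FGB, AHSG, APOB, CPS1 and HNF4A) were bright, with a sum of intensities of 324586 to 368907 on KNP arrays and of 512600 to 549443 on YS arrays. The bright end of the arrays differed between the breeds as a whole. The highest intensity on an array ran from 50730 to 60066 in KNP and from 83646 to 95919 in YS, while the median intensity ran from 153 to 180 over all 8. The 27 probe sets of spiked hybridization controls, RNA added in the laboratory, had a geometric mean of 4294 ± 643 in KNP and 7546 ± 970 in YS (SD, n = 4 each; exact permutation test, two-sided, p = 0.0286, the smallest that 4 against 4 arrays allow). The 3' to 5' ratio of the actin controls, which reflects RNA length, averaged 4.83 ± 1.88 over KNP arrays and 10.46 ± 1.45 over YS arrays (exact permutation test, two-sided, p = 0.0286). That of the EEF1A1 controls averaged 1.23 ± 0.23 in KNP and 1.63 ± 0.25 in YS, with overlap (exact permutation test, two-sided, p = 0.0571). Both ratios were higher in YS, where relatively less signal came from the 5' end. Ribosomal proteins are among the brightest probe sets, so these values stand beside every result that follows. The actin ratio ran from 2.68 to 6.45 in KNP and from 8.39 to 11.79 in YS, without overlap. A fit to 8 arrays with this ratio as a covariate can therefore hardly separate it from breed. With the actin ratio as a covariate 0 ribosomal protein genes were called (20 lower and 1 higher at an unadjusted p under 0.05). Over all probe sets tested, 2 were then called lower, against 85 without the covariate. Comparisons with equally bright probe sets are given further on, and the part of the spiked control signal in the results was not tested.

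Ribosomal protein genes were mostly lower in KNP. With each gene represented by its brightest probe set, 62 of the 64 genes were bright enough to be tested, 33 of the large subunit, 23 of the small subunit and all 6 others. The mean was lower in KNP for 55 genes and higher for 7. RPL5, RPL7, RPL9, RPL17, RPL31, RPS3A, RPS23, RPS26, RPS29 and RPSA fell (limma, Benjamini-Hochberg adjusted p under 0.05 over all 14361 probe sets tested). They are 10 of 62 genes or 16.1%, against 0.592% of all probe sets tested. No gene was called higher, where the share over all probe sets was 0.425%; at an unadjusted p under 0.05 there were 42 lower genes and 1 higher gene. In 38 of the 62 genes (61.3%) every KNP value lay below every YS value, against 5.65% of all probe sets, and in 0 genes did every KNP value lie above, against 4.02%. The median log2 difference, KNP minus YS, was −0.35 over the 62 genes and −0.0083 over all probe sets tested.

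These calls rest on all 8 animals. Without KNP replicate 1, or without any 1 of the 4 YS animals, 0 genes were called, although 31 to 40 genes then had an unadjusted p under 0.05 in the lower direction. Without KNP replicate 3 the count was 2 (RPS23 and RPS26), and without KNP replicate 2 it was 4 (RPL5, RPL17, RPS26 and RPSA). Without KNP replicate 4 it was 9, of which 7 were among the original 10. Calls over all probe sets fell as well. Those called lower numbered 85 with all 8 animals and 25, 56, 44 and 78 without KNP replicates 1 to 4. Without YS replicates 1 to 4 they numbered 6, 9, 3 and 4. The calls of ribosomal protein genes were also lost under each of the 3 normalizations tried that act on bright and dim probe sets separately. After quantile normalization 0 genes were called (8 lower at an unadjusted p under 0.05; 0.0279% of all probe sets called lower), after cyclic loess 0 (8 lower; 0.0279%), and after centring on equally bright probe sets 0 (6 lower; 0.0209%).

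**Figure D1:**
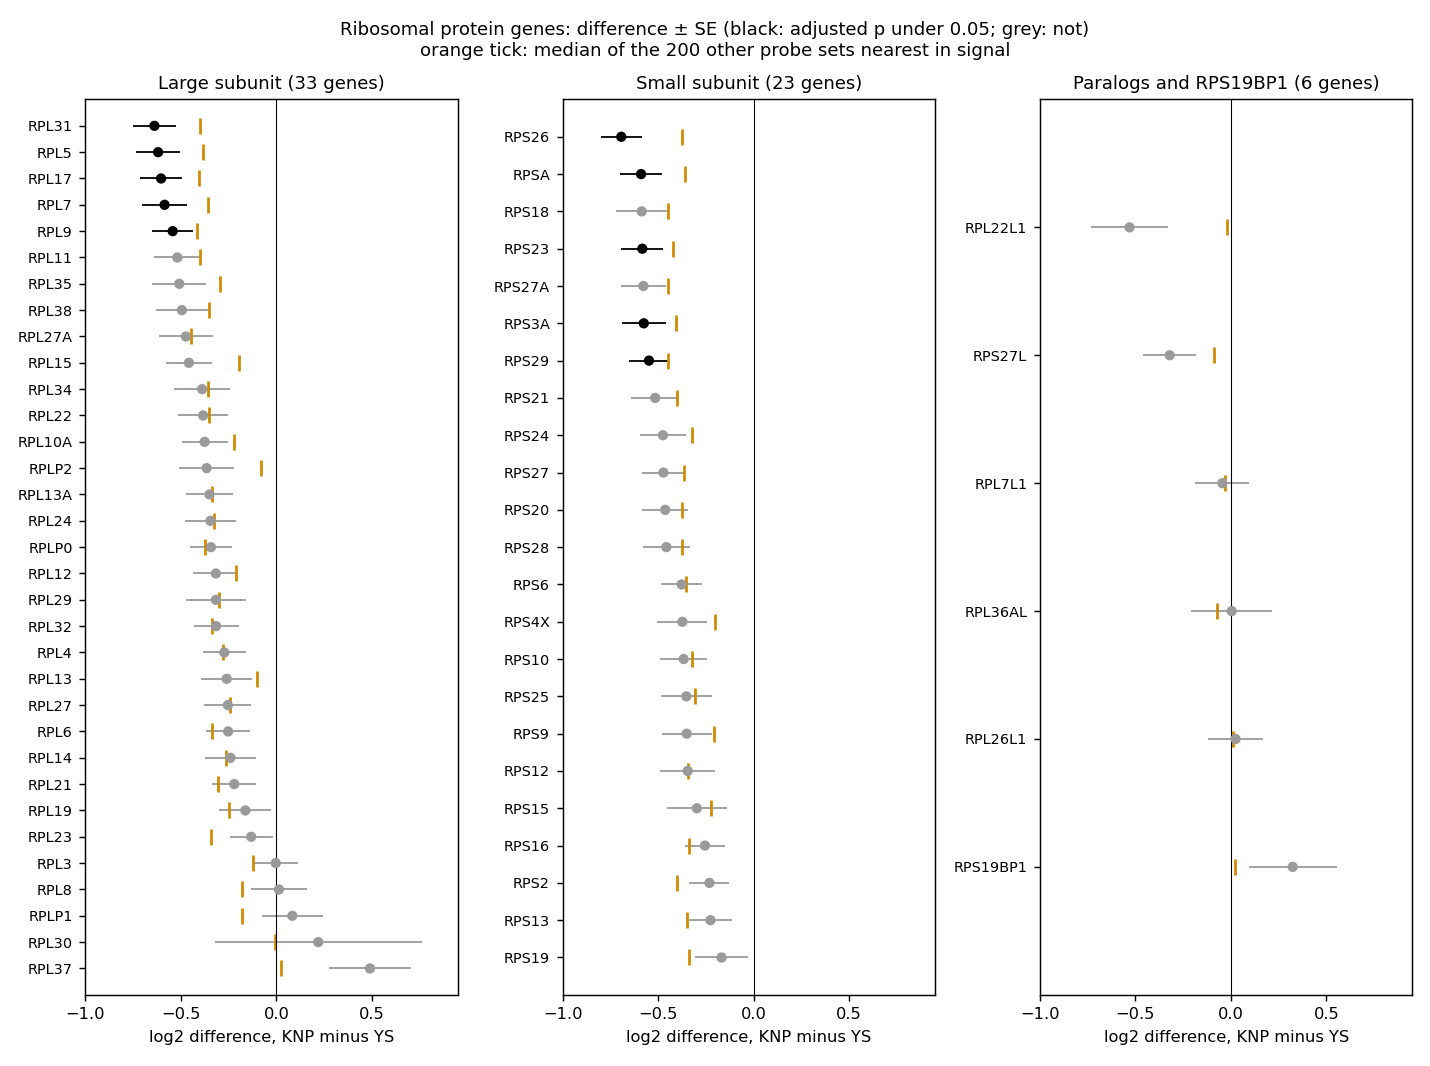
Log2 difference, KNP minus YS, with its standard error for the brightest probe set of each of the 62 genes tested, by subunit; black points passed an adjusted p of 0.05 and the orange tick is the median of the 200 other probe sets nearest in signal. All 23 small-subunit genes and 29 of 33 large-subunit genes lie left of 0; 42 of the 62 points lie left of their orange tick.

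Among proteins of the small subunit, RPS26 had the largest decrease on a gene's brightest probe set. RPS26 sits where the mRNA leaves the ribosome, and its gene is mutated in some patients with Diamond-Blackfan anaemia. Its intensities were 17095, 17788, 18691 and 18259 in the KNP animals and 28649, 26823, 31270 and 29569 in the YS animals. All 4 KNP values lay within a narrow band far under the lowest YS value. RPS26 fell 1.62-fold (log2 difference −0.69, SE 0.11, limma adjusted p = 0.0298).

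RPS23, a protein of the decoding centre, measured 21313, 21904, 26463 and 22352 in KNP and 35352, 33656, 34201 and 34225 in YS. KNP replicate 3 was the highest of its breed, still below all YS animals (−0.58, SE 0.11, limma adjusted p = 0.0392). RPS3A, which lies near the mRNA exit, measured 20802, 20848, 21167 and 24498 in KNP and 33817, 29129, 35419 and 31820 in YS. KNP replicate 4 stood above the 3 others, and the breeds did not overlap (−0.58, SE 0.11, limma adjusted p = 0.0448). RPS29, a zinc-binding protein of the small subunit's head, measured 27347, 25953, 28050 and 30767 in KNP and 43841, 40275, 40459 and 39245 in YS. The gap between the breeds was wider than either breed's spread (−0.55, SE 0.11, limma adjusted p = 0.0407).

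RPSA, a small-subunit protein also known as a laminin receptor, measured 17402, 18017, 15263 and 18198 in KNP and 25014, 25540, 27086 and 25839 in YS. KNP replicate 3 was lowest, and no values overlapped (−0.59, SE 0.11, limma adjusted p = 0.0380). RPS27A, which is made as a fusion with ubiquitin, lay just outside the threshold with a similar difference. Its values were 23333, 24075, 25852 and 30020 in KNP and 40474, 37183, 41212 and 34903 in YS (−0.58, SE 0.12, limma adjusted p = 0.0503). The KNP values spread more widely here than for RPS26, and they too stayed below every YS value.

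Large-subunit proteins that passed included RPL5, which binds 5S ribosomal RNA together with RPL11 and, when free, can restrain the p53 regulator MDM2. RPL5 measured 18757, 20070, 16187 and 20296 in KNP and 29480, 27827, 28918 and 29090 in YS. The YS animals were tightly grouped and the KNP animals all lower (−0.62, SE 0.11, limma adjusted p = 0.0365). Its partner RPL11 measured 22590, 22155, 18704 and 22916 in KNP and 34932, 30706, 30427 and 27723 in YS. RPL11 had no overlap between the breeds and did not pass (−0.52, SE 0.12, limma adjusted p = 0.0765). RPL35, another large-subunit protein, likewise had no overlap and did not pass, at 13013 ± 2223 in KNP and 18378 ± 1523 in YS (SD, n = 4; −0.51, SE 0.14, limma adjusted p = 0.124).

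RPL31 and RPL17 both lie at the exit of the peptide tunnel. RPL31 measured 20372, 19481, 18847 and 23336 in KNP and 32747, 31550, 33730 and 29473 in YS. RPL17 measured 22205, 22348, 19648 and 22595 in KNP and 34237, 33227, 34711 and 29805 in YS. In both genes the lowest YS animal was replicate 4, and it remained above every KNP animal. RPL31 fell by 0.64 on the log2 scale (SE 0.11, limma adjusted p = 0.0365) and RPL17 by 0.60 (SE 0.11, limma adjusted p = 0.0365).

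RPL7 measured 15627, 17899, 17739 and 17560 in KNP and 30028, 24133, 25172 and 24261 in YS. KNP replicate 1 was the low value of its breed and YS replicate 1 the high value of the other (−0.59, SE 0.12, limma adjusted p = 0.0459). RPL9, a protein near the base of the stalk, measured 23290, 22891, 21020 and 22256 in KNP and 32742, 30499, 35755 and 31520 in YS. The KNP animals differed little among themselves, and all were below the YS animals (−0.54, SE 0.11, limma adjusted p = 0.0430).

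**Figure D2:**
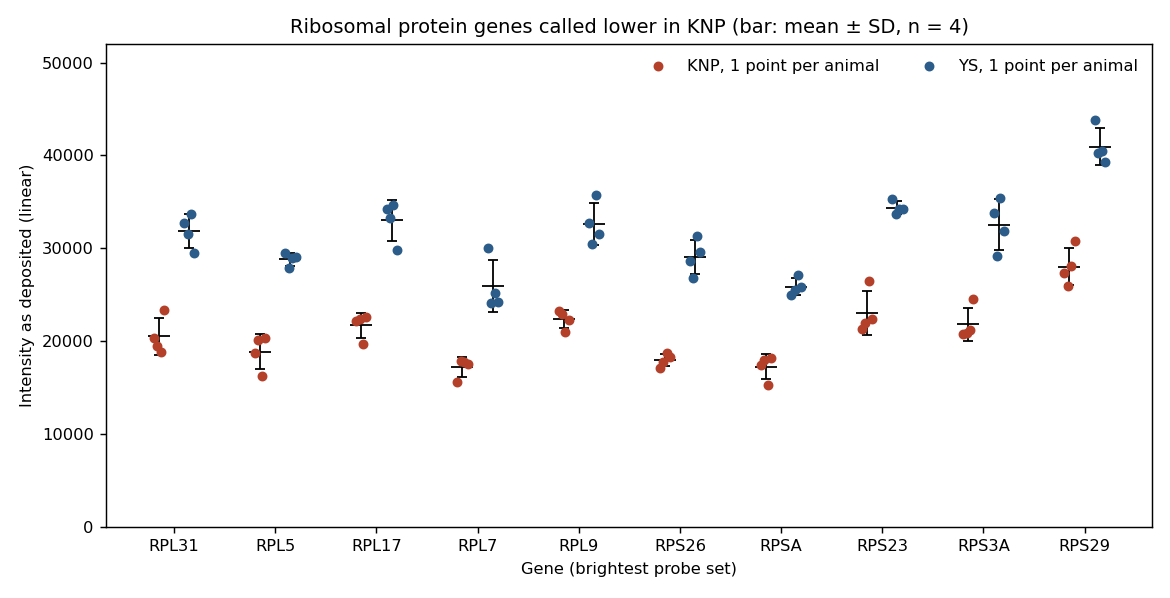
Deposited intensity on a linear axis for the 10 ribosomal protein genes called lower in KNP, 1 point per animal, with mean and SD per breed (n = 4). The points of the breeds do not overlap for any of the 10; RPS26 runs from 17095 to 18691 in KNP and from 26823 to 31270 in YS.

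The small subunit lay further below YS than the large subunit. All 23 small-subunit genes had a lower mean in KNP, with a range of −0.69 to −0.17 and a median log2 difference of −0.46. In 19 of the 23 (82.6%) the breeds did not overlap. Of the 33 large-subunit genes 29 had a lower and 4 a higher mean, over a range of −0.64 to 0.49 with a median of −0.34, and 17 (51.5%) did not overlap. Calls were 5 of 23 (21.7%) in the small and 5 of 33 (15.2%) in the large subunit. Of probe sets outside the ribosomal proteins with a mean log2 intensity of at least 13, 12.6% were called lower. In 40.9% of them every KNP value lay below every YS value. Over all probe sets tested these shares were 0.592% and 5.65%. The subunits differ in brightness too, with a median log2 intensity of 14.36 for the small and of 14.04 for the large subunit. No test was made of the difference between subunits.

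The gap between the subunits was seen on each KNP array as deposited. Relative to the YS mean of each gene, the median of the large subunit minus that of the small subunit was 0.15, 0.11, 0.12 and 0.20 on the 4 KNP arrays and 0.011, 0.021, −0.013 and −0.054 on the 4 YS arrays. No KNP value overlapped a YS value. After quantile normalization the same quantity was 0.13, 0.063, −0.0048 and 0.12 in KNP and 0.026, 0.0025, 0.0014 and −0.027 in YS. The breeds then overlapped, with KNP replicate 3 inside the YS range. After centring on equally bright probe sets it was 0.13, 0.0041, 0.011 and 0.12 in KNP and 0.014, 0.021, −0.0081 and −0.044 in YS, and the breeds overlapped again.

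The animals were not equally far apart. Over all 62 genes the median difference from the YS mean was −0.37, −0.35, −0.47 and −0.25 on the KNP arrays and 0.073, −0.040, 0.050 and −0.057 on the YS arrays. KNP replicate 3 had the lowest of the 8 values in 32 of the 62 genes and KNP replicate 1 in 14. YS replicate 3 had the highest value in 24 genes and YS replicate 1 in 23. The share of the summed intensity of an array that fell on ribosomal protein probe sets was 4.67 to 5.28% in KNP and 5.61 to 6.12% in YS.

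**Figure D3:**
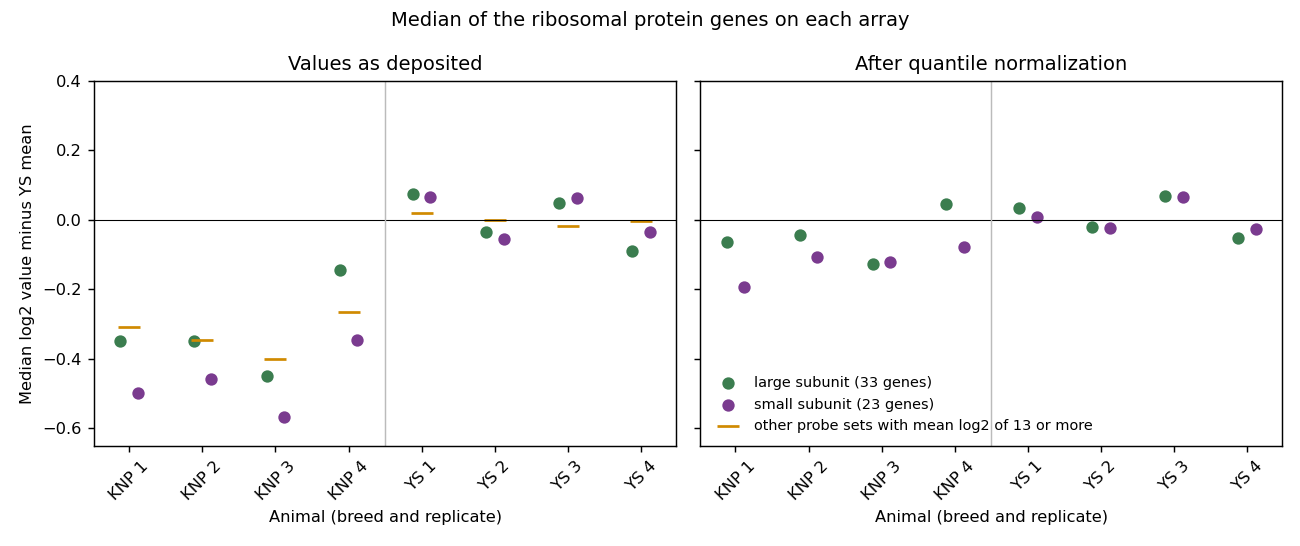
Median log2 value of the large-subunit (33) and small-subunit (23) genes on each array, relative to the YS mean, as deposited (left) and after quantile normalization (right); the orange bar is the median of non-member probe sets whose mean log2 intensity was at least 13. As deposited, the small subunit lies below the large on all 4 KNP arrays; after quantile normalization the large-minus-small gap is −0.0048 on KNP replicate 3.

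Equally bright probe sets of other genes were also lower in KNP. For each member the median difference of the 200 non-member probe sets nearest in mean intensity was taken. The median of these values was −0.34, beside −0.35 for the members themselves. Subtracted gene by gene, member minus neighbours had a median of −0.044. Of the 62 genes 42 lay below their neighbours' median and 20 above. By subunit the median of member minus neighbours was −0.099 for the small subunit, with 19 of 23 genes below, and −0.020 for the large subunit, with 20 of 33 below. RPS26 had a difference of −0.32 from its neighbours. RPL15, a large-subunit protein not called (9278 ± 761 in KNP, 12745 ± 907 in YS; SD, n = 4; −0.46, limma adjusted p = 0.108), had one of −0.26.

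Above a mean log2 intensity of 13 there were 52 member genes and 381 other probe sets. The median difference was −0.37 for members and −0.34 for the others. Of the members 10 (19.2%) were called lower, against 48 (12.6%) of the others. No overlap, with KNP lower, was seen for 35 members (67.3%) and for 156 others (40.9%). The spread among animals of 1 breed differed as well: the median SD within a breed was 0.13 for these members and 0.21 for the others.

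In bins of mean log2 intensity above 13 the members and the other probe sets were both lower in KNP. Between 13 and 14 the medians were −0.31 for 18 member probe sets and −0.21 for 185 others. Between 14 and 15 they were −0.46 for 36 members and −0.39 for 131 others. From 15 to 17 they were −0.57 for 2 members and −0.58 for 65 others. After quantile normalization the member medians in these bins were −0.072, −0.079 and −0.14, and those of the others −0.060, −0.023 and −0.028. In dimmer bins the medians were −0.29 for 4 members and −0.071 for 399 others between 12 and 13, −0.098 for 7 members and 0.023 for 2500 others between 10 and 12, and −0.081 for 12 members and 0.022 for 6261 others between 8 and 10. From 5 to 8 the order was the other way, with −0.0095 for 9 members and −0.040 for 4732 others. After quantile normalization the medians from 12 to 13 were −0.25 for members and −0.039 for others. Those from 5 to 8 were 0.10 and 0.040. Only the 65 other probe sets of the brightest bin lie above 15, so the neighbours of the brightest members reach into dimmer signal.

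Over the 62 genes the median difference was −0.066 after quantile normalization, −0.097 after cyclic loess and −0.065 after centring on equally bright probe sets. For the small subunit these medians were −0.12, −0.16 and −0.10, and for the large subunit −0.034, −0.076 and −0.042. The mean stayed lower in KNP for 44, 46 and 43 of the 62 genes. Of the small-subunit genes 19 of 23 had a lower mean under each of the 3, and the 10 genes called as deposited had differences after quantile normalization from −0.35 (RPS26) to −0.12 (RPL9).

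**Figure D4:**
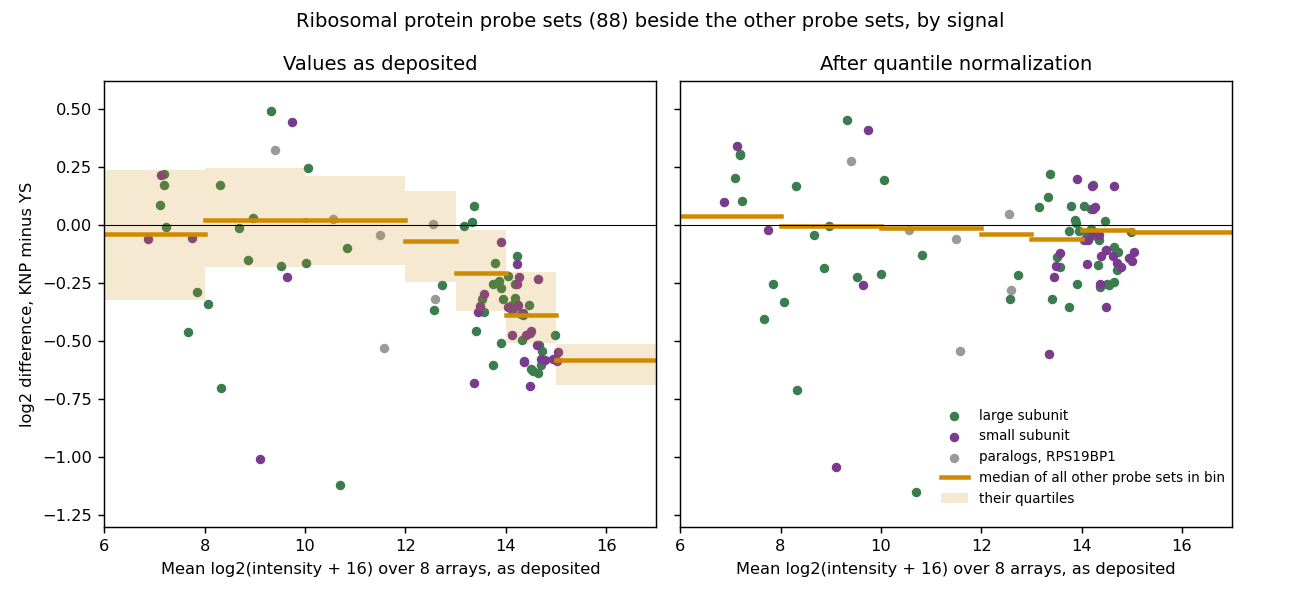
Log2 difference, KNP minus YS, of the 88 tested ribosomal protein probe sets against mean log2 intensity, as deposited (left) and after quantile normalization (right); orange lines are medians of all other probe sets in a bin and the band on the left their quartiles. As deposited the orange line drops to −0.58 in the brightest bin and the members drop with it; on the right the bins above 13 lie between −0.060 and −0.023.

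Several genes had more than 1 probe set, 16 had 2 and 8 had 3, and these did not always give the same difference. In 21 genes at least 2 probe sets were tested, which made 26 pairs of the brightest and another probe set. In 8 of these pairs (RPL6, RPL12, RPL13A, RPL17, RPL23, RPL24, RPL32 and RPS6) the names differ only in 1 letter, A or S. The brighter set had a mean log2 intensity of at least 13.5 in each, and the dimmer one of at most 10.83. Their median differences were −0.33 and −0.20. Whether the dimmer set reads the gene's mRNA was not examined, so it may not be a second reading. Over the 21 genes the brightest had a median difference of −0.38, and the 26 others had one of −0.12. Of these others 22 had a mean log2 intensity under 13, with a median of −0.080. Probe sets outside the ribosomal proteins had a median of 0.00079 under that limit (13892 probe sets) and of −0.34 above it (381). Signs were opposite in 8 of the 26 pairs, and that of RPL32 was also one of those named alike but for the letter. In 17 of the 26 the other probe set lay above the brightest. Counting every probe set, 14 of 88 were called lower and 0 higher, where the shares over all probe sets tested were 0.592% and 0.425%. The 14 became 1 after quantile normalization, 1 after cyclic loess and 0 after centring on equally bright probe sets. Below a mean log2 intensity of 13 there were 32 member probe sets, 20 with a lower and 12 with a higher mean, a median of −0.059 and 1 call.

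That call was a probe set of RPS28, a small-subunit protein at the mRNA exit. It measured 315, 350, 412 and 422 in KNP and 798, 652, 816 and 802 in YS. The highest KNP value was well below the lowest YS value (−1.01, SE 0.16, limma adjusted p = 0.0323). It kept its call after quantile normalization (−1.04, limma adjusted p = 0.0387) and cyclic loess (−1.05, limma adjusted p = 0.0329), and not after centring on equally bright probe sets (−1.01, limma adjusted p = 0.0551). The brightest RPS28 probe set, with 19788 ± 2555 in KNP and 27045 ± 1421 in YS (SD, n = 4), gave −0.46 (limma adjusted p = 0.109), and the dimmest −0.062. The 3 probe sets of RPS28 therefore do not give 1 value for the gene.

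RPL38, a large-subunit protein whose loss in mice alters the body plan, gave a similar picture. The brightest probe set measured 17384, 17336, 14403 and 20449 in KNP and 28421, 23455, 23679 and 22207 in YS (−0.50, limma adjusted p = 0.124). A dimmer one measured 1179, 908, 1000 and 1428 in KNP and 1699, 4032, 3612 and 1419 in YS (−1.12, limma adjusted p = 0.131). YS replicates 2 and 3 stood far above the other 2 YS animals in the dimmer set, which overlapped with KNP.

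RPL31 gave nearly the same value on both of its bright probe sets, −0.64 and −0.63, and both were called; the suffix of the second marks probes that can also match other transcripts. For RPS18, a protein of the small subunit's head, the brightest set gave −0.59 (limma adjusted p = 0.0747), another bright set −0.075 and the dimmest −0.68 (limma adjusted p = 0.0439). RPL27 gave −0.25, −0.60 (limma adjusted p = 0.0442) and 0.17. In RPS18 and RPL27 the called probe set carries the suffix for probes common to several transcripts, as does the brightest set of RPS28. RPL17, called on its brightest set, had −0.098 on another, and RPL9 had −0.012 on another. RPS27 gave −0.47 on its brightest set and 0.44 on a dimmer one, whose values were 875, 1037, 693 and 1470 in KNP and 816, 762, 679 and 626 in YS. The breeds overlapped in that dimmer set. The 8 pairs of opposite sign came from RPL12, RPL23, RPL27, RPL32, RPLP0, RPLP1, RPS25 and RPS27. RPL12 gave −0.32 on its brightest set, −0.70 on a dimmer one (239 ± 38.8 in KNP, 404 ± 99.0 in YS; SD, n = 4; limma adjusted p = 0.154) and 0.087 on the dimmest. RPS25 gave −0.35 and 0.22.

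**Figure D5:**
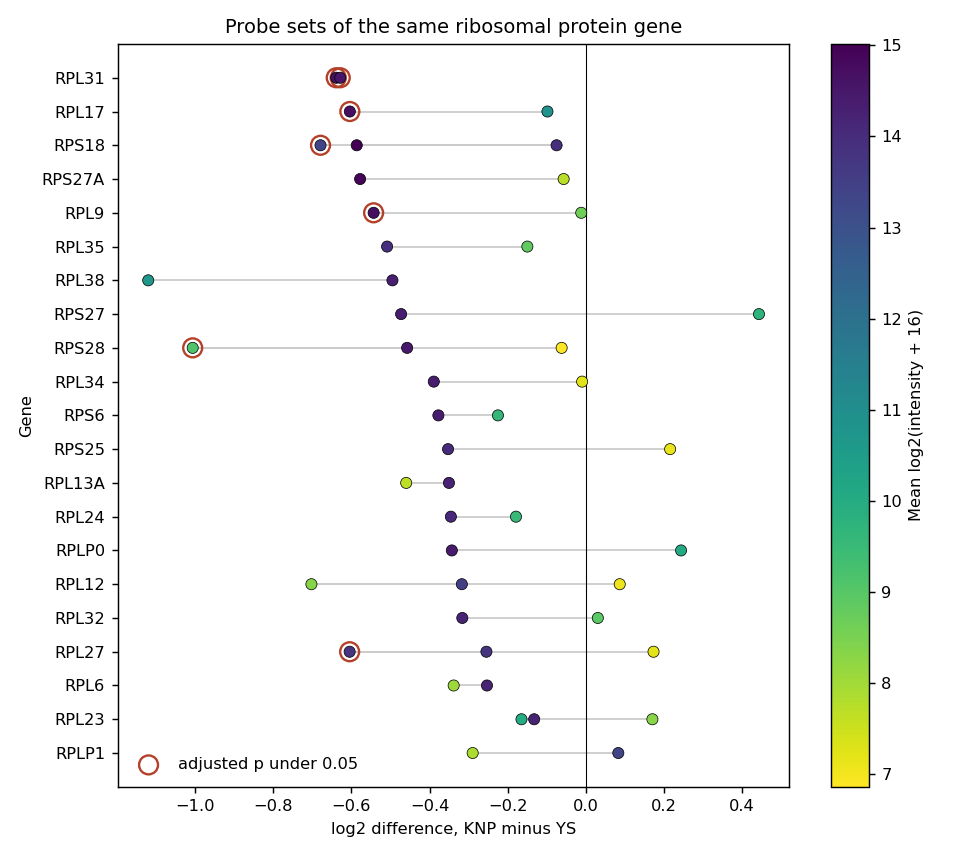
Log2 difference, KNP minus YS, of each tested probe set for the 21 genes with at least 2; colour is mean log2 intensity and a red ring marks an adjusted p under 0.05. The dark points (bright probe sets) lie mostly left of −0.2 and the light ones scatter on both sides of 0, from −1.12 (RPL38) to 0.44 (RPS27).

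Of the stalk proteins, which recruit elongation factors, RPLP0 and RPLP2 had lower means in KNP on the brightest probe set. RPLP1 did not differ clearly. RPLP0, the stalk's base, measured 20965, 19928, 18265 and 20914 in KNP and 24752, 24750, 27461 and 24567 in YS. There was no overlap, and the difference did not pass (−0.34, SE 0.11, limma adjusted p = 0.166); it was 0.019 after quantile normalization. A dimmer RPLP0 probe set gave 0.24. RPLP1 measured 9572, 12075, 9636 and 12299 in KNP and 13037, 10576, 8969 and 8794 in YS, values that overlapped widely (0.083, SE 0.16, limma adjusted p = 0.845). A dimmer RPLP1 probe set gave −0.29 (limma adjusted p = 0.556). RPLP2 measured 4281, 5483, 6145 and 5750 in KNP and 7026, 7367, 7157 and 6187 in YS, just without overlap (−0.37, SE 0.15, limma adjusted p = 0.270).

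The mean was higher in KNP for 7 genes, RPL8 among them, and RPL3 was nearly level. RPL8 and RPL3 both lie close to the peptidyl transferase centre. RPL8 measured 11306, 11694, 8385 and 10417 in KNP and 9998, 11627, 10746 and 8913 in YS, with a difference of 0.013 as deposited and −0.016 after median centring. RPL3, which is named here after its values were seen, measured 8810, 8918, 9447 and 9336 in KNP and 8918, 9849, 9333 and 8539 in YS (−0.0037, SE 0.11, limma adjusted p = 0.993), and was at 0.079 after quantile normalization. Both genes had overlapping breeds. Their equally bright neighbours had medians of −0.18 and −0.12. RPL37 had the largest difference above 0, with 525, 823, 739 and 943 in KNP and 687, 432, 467 and 540 in YS (0.49, SE 0.22, limma adjusted p = 0.314), and KNP replicate 1 overlapped with YS.

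RPL37 and RPL30 were read only by dim probe sets, and RPL30 varied from 96.9 to 258 in KNP and from 23.1 to 224 in YS (0.22, SE 0.54). RPL26 and RPS15A were too dim to be tested, with 78.7 ± 40.7 and 82.1 ± 29.97 for RPL26 and 27.0 ± 16.4 and 68.9 ± 33.4 for RPS15A in KNP and YS (SD, n = 4). Of the 96 probe sets 8 were not tested, and none of these exceeded an intensity of 132 on any array.

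Genes often used as references in expression studies also had lower means in KNP. RPL4 measured 13902 ± 1082 in KNP and 16773 ± 644 in YS (SD, n = 4; −0.27, limma adjusted p = 0.284). RPL13A measured 16949 ± 1968 and 21547 ± 1473 (−0.35, limma adjusted p = 0.208). RPL32 measured 16849 ± 1993 and 20875 ± 205 (−0.32, limma adjusted p = 0.244). None of these passed, and in RPL13A the breeds overlapped. RPL19 measured 13467 ± 1413 in KNP and 15113 ± 1959 in YS (−0.16, limma adjusted p = 0.608), with overlap. RPL4 turned to 0.0087 and RPL19 to 0.081 after quantile normalization, and RPL32 to 0.0045 after centring on equally bright probe sets.

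RPS6, the small-subunit protein phosphorylated by the S6 kinases downstream of mTOR, measured 18377, 18434, 16526 and 19793 in KNP and 23953, 23000, 24566 and 23332 in YS. The breeds did not overlap, and the difference did not pass (−0.38, SE 0.11, limma adjusted p = 0.130). A dimmer RPS6 probe set gave −0.22, also without overlap. RPL23, a large-subunit protein at the interface between subunits, was at −0.13 as deposited, 0.21 above its equally bright neighbours, and at 0.17 after quantile normalization.

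The paralogs and RPS19BP1 were dimmer, with a median log2 intensity of 11.53, and their median difference was −0.021. None was called in either direction. RPL22L1, the paralog of RPL22, measured 2908, 2863, 1748 and 2759 in KNP and 3936, 2951, 4514 and 3368 in YS (−0.53, SE 0.20, limma adjusted p = 0.249). KNP replicate 3 was far below the rest, and the breeds were separated only narrowly. RPS27L, a p53-responsive paralog of RPS27, measured 6040, 5934, 5785 and 4507 in KNP and 7543, 7088, 6460 and 6598 in YS (−0.32, SE 0.14, limma adjusted p = 0.308), without overlap. RPL7L1 was at −0.045 and RPL36AL at 0.0038, and RPL26L1 at 0.024 as deposited but at −0.022 after quantile normalization. RPS19BP1 was at 0.32 (SE 0.23, limma adjusted p = 0.549). In these 4 the breeds overlapped.

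Partners of the ribosome outside the naming rule behaved variously. FAU, which encodes the small-subunit protein RPS30 fused to a ubiquitin-like protein, measured 14483 ± 3088 in KNP and 20771 ± 1915 in YS (SD, n = 4; −0.54, limma adjusted p = 0.140). RACK1, a scaffold on the small subunit, measured 16563 ± 1405 and 21507 ± 839 (−0.38, limma adjusted p = 0.140). Neither passed, and their median was −0.46. Of 15 other tested mRNAs known to begin with a pyrimidine run, 0 were called, 11 had a lower mean and the median was −0.086. The brightest of the 15, TPT1, measured 31605 ± 3519 in KNP and 43606 ± 3510 in YS (−0.47, limma adjusted p = 0.1005), and was at −0.0089 after quantile normalization. Next after TPT1 by p-value were VIM (0.43, limma adjusted p = 0.236), EIF3H (−0.42, 0.269) and EEF1D (−0.26, 0.421). EEF1G, an elongation factor subunit, was at −0.026 (limma adjusted p = 0.954). PABPC1, the poly(A) binding protein, was at 0.11 (limma adjusted p = 0.794). The 15 mRNAs had a median log2 intensity of 12.01, against 14.19 for the cytosolic ribosomal proteins.

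Ribosome biogenesis factors had 34 tested genes and 0 calls, with 24 lower and 10 higher means and a median of −0.10. POLR1D, a subunit of RNA polymerases I and III, measured 1952 ± 277 in KNP and 1183 ± 93.3 in YS (SD, n = 4; 0.71, limma adjusted p = 0.0611). MRTO4, which acts in assembly of the stalk, measured 259 ± 37.1 and 411 ± 39.8 (−0.64, limma adjusted p = 0.112). Regulators of the translation of ribosomal protein mRNAs had 8 tested genes, 0 calls and a median of −0.0014. Ribosomal proteins of mitochondria, which form a separate ribosome, had 58 tested genes and 0 calls, 22 lower and 36 higher means, and a median of 0.068. These lists are dimmer than the cytosolic ribosomal proteins, with median log2 intensities of 8.85, 8.41 and 9.83 against 14.19.

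Probe sets for ribosomal RNA are part of the array's controls. Of 5 such sets, an 18S set measured 2932 ± 536 in KNP and 1613 ± 339 in YS, and a 28S set measured 1047 ± 205 and 518 ± 182 (SD, n = 4; exact permutation test, two-sided, p = 0.0286 each, adjusted p = 0.0714 over the 5). Another 18S set measured 350 ± 149 in KNP and 500 ± 122 in YS, another 28S set 4962 ± 1836 and 4077 ± 1076, and the 5S set 426 ± 125 and 419 ± 123. None of the 5 passed after adjustment. The first 18S and 28S sets had the smallest p that 4 against 4 arrays allow. With no further set at that limit, their adjusted p could not fall below 0.0714. The adjusted test therefore cannot decide whether these sets differ. Sets for the same RNA differed in direction or size.

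Cell type markers moved beside these values. Of the 10 hepatocyte markers all had a lower mean in KNP and 7 were called lower. The shares called lower were 0.592% of all probe sets and 12.6% of those outside the ribosomal proteins above a mean log2 intensity of 13. The markers' median was −0.57, or −0.045 after quantile normalization. They were brighter still, with a median log2 intensity of 15.38. The 65 probe sets outside the ribosomal proteins from 15 to 17, some markers among them, had a median of −0.58. After quantile normalization it was −0.028. All 4 macrophage markers tested had a higher mean in KNP with 0 calls and a median of 0.52, and their sum was 13422 to 18720 in KNP and 7793 to 16714 in YS. All 5 T and NK cell markers had a higher mean, with 0 calls, a median of 0.47 and a sum of 760 to 1751 against 630 to 987. The 3 erythroid markers had a median of −0.56 with 0 calls and a sum of 1597 to 3600 in KNP and 2080 to 5463 in YS. Of 4 endothelial, 5 stellate, 2 neutrophil, 1 plasma cell and 1 cholangiocyte marker none was called, with medians of 0.18, 0.051, 0.48, 0.85 and 0.65. MARCO, CD3G, CD4, IL7R, CD79B, KDR, LUM, KRT19, SOX9, CFTR and S100A12 were too dim to be tested. The part of cell composition in the ribosomal protein values was not tested.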

How the data were processed

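The authors deposited linear intensities, 1 per probe set and array. The submitters' processing notes name GCOS 1.3; which signal algorithm was run is not given in the sources used here. A mean taken between percentiles 2 and 98 came to 499.8 on each array, so the values carry a scaling per array. Controls (188 of 24123 probe sets) and the lower 40% of the rest by mean were left out. log2(intensity + 16) was fitted in R 4.3.3 with limma 3.58.1 (lmFit, eBayes with intensity trend, two-sided, breed only) on 14361 probe sets, with Benjamini-Hochberg adjustment and a threshold of 0.05; the fit was tested on simulated data. Fold changes are on that scale. Symbols come from the array annotation, and all 96 matched the RefSeq gene table.

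Genes named are those called, those with a second probe set that was called, of opposite sign or over 0.5 apart, the 6 largest differences above 0, the 3 smallest p-values not called per subunit, the paralogs, a set of stalk, 5S and reference genes, and up to 4 genes of each other list. EEF1G and PABPC1 were named outside this rule. Members, lists and the naming rule were chosen with earlier results of these data known. Replicate numbers name different animals; deviations of same-numbered animals correlated at −0.020, 0.012, −0.014 and 0.053, so they were not treated as pairs. The labels call the arrays biological replicates. The number of arrays limits the precision. Alternatives tried were other pseudocounts, filters, normalizations, centring each probe set on its 200 nearest in brightness, array weights, no trend, a replicate block, the actin ratio as a covariate, and each animal left out.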

Additional observations from a re-analysis of the deposited data

Results flagged for a closer look

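In the genes named, each breed's 4 animals were examined for a highest or lowest value whose gap to the nearest other animal took up more of the breed's range than Dixon's 95% critical value for 4 samples, a limit that chance passes in about 1 of 20 groups. Of 78 groups 8 passed. In KNP, replicate 3 was the low animal for RPL11 (gap over range 0.834), RPL17 (0.875), RPL22L1 (0.896) and RPS18 (0.849). Replicate 1 of KNP was low for RPL7 (0.859). Replicate 4 of KNP was low for RPS27L (0.852) and high for RPS3A (0.894). In YS, replicate 3 was high for RPLP0 (0.933).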

How the results depend on the processing

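Counts of genes and of probe sets called lower were 10 and 14 as reported. They were 0 and 1 after quantile normalization, 0 and 1 after cyclic loess, 0 and 0 after brightness centring, 0 and 1 with no filter, 0 and 0 with no intensity trend, 0 and 0 with the actin ratio as a covariate, and 0 and 0 at an adjusted p under 0.01. With a replicate block, although the numbers do not pair the animals, they were 0 and 0. Over all probe sets tested, those called lower fell from 85 to 11 with no filter and 5 with no intensity trend. With the actin covariate and with the replicate block 2 remained in each case. When all probe sets of a gene were averaged, 4 genes were called, the small-subunit median was −0.37 and the median minus equally bright probe sets −0.14. Leaving out 1 animal gave 0 to 9 genes and 0 to 12 probe sets. The spiked control difference then ran from −0.89 to −0.71 and the actin ratio difference from −1.37 to −0.95 on the log2 scale, each with an exact permutation p of 0.0571, the smallest that 3 against 4 arrays allow. The cause of these losses was not tested. A pseudocount of 1 or 64, median centring, the lower 60% left out, array weights and leaving out shared probe sets gave 10, 11, 12, 11, 11 and 12 genes, each with all of the original 10.

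Medians after quantile normalization, cyclic loess and brightness centring were −0.066, −0.097 and −0.065 over all genes, −0.034, −0.076 and −0.042 for the large and −0.12, −0.16 and −0.10 for the small subunit. Higher means numbered 7 of 62 genes as reported and 18, 16 and 19 after these 3 normalizations. Among the 39 genes chosen by the naming rule, the signs that turned belonged to uncalled genes: after quantile normalization RPL26L1 (−0.022), RPL4 (0.0087), RPLP0 (0.019), RPL19 (0.081) and RPL23 (0.17); after cyclic loess RPL26L1 (−0.015), RPL19 (0.077) and RPL23 (0.15); after brightness centring RPL32 (0.0045), RPLP0 (0.017), RPL19 (0.086) and RPL23 (0.19); after median centring RPL26L1 (−0.0054), RPL8 (−0.016) and RPL36AL (−0.026); with the actin covariate RPLP1 (−0.024), RPL26L1 (−0.073), RPS19BP1 (−0.36), RPL8 (−0.37) and RPL7L1 (0.065); and with probe sets averaged RPLP1 (−0.10). With 1 animal left out, RPL26L1, RPL30, RPL36AL, RPL7L1 and RPL8 turned sign at least once, with ranges for RPL26L1 from −0.051 to 0.066, RPL30 from −0.38 to 0.50, RPL36AL from −0.13 to 0.24, RPL7L1 from −0.13 to 0.0045, RPL8 from −0.055 to 0.12.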
